A study of Arabidopsis thaliana with 18 samples.

Results

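Caesium-treated roots of Arabidopsis thaliana were compared with control roots on 6 of the 18 arrays in the series, 3 arrays of each, chosen by sample title. The plants were of the accession Ws-2 (Wassilewskija) at developmental stage 3.90. Growth was at 22 °C with a 16 h day and 80% humidity, on agar (0.8%) that held diluted Murashige-Skoog salts and sucrose (1%), and the tissue is labelled as all root material. Roots of potassium-starved plants, also 3 arrays, shared the estimate of the spread and are given beside both groups for part of the genes. Shoots of the same 3 kinds of plants, 9 arrays, were used to recognise shoot transcripts. How much caesium was given, for how long, and how plants were deprived of potassium is not stated in the labels used here. No label ties replicates to separate cultures, so the p-values below reflect only the spread among these arrays, and that spread may be technical.

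Caesium is an alkali metal whose ion resembles that of potassium. It enters roots through potassium transporters and through nonselective cation channels, among them glutamate receptor-like and cyclic nucleotide-gated channels, and it interferes with the uptake and use of potassium. Roots under nutrient stress are known to adjust ion carriers, secreted coumarins, sulphur metabolism, cell wall proteins and defence peptides. Roots make little of the photosynthetic machinery, so transcripts of photosynthesis genes on a root array can also report shoot material or greening of the root.

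Each probe set of the 1-colour Affymetrix ATH1 array gave a signal in linear units, and differences are on the log2 scale with their standard error from the fit without a replicate block. Tests covered the 14432 probe sets that were above an array's 40th percentile on 3 or more of the 9 root arrays. Median signals of the caesium-treated roots were 44.8, 44.7 and 43.5 for replicates 1, 2 and 3, against 43.4, 42.8 and 42.9 in control roots. The ratio of 3′ to 5′ actin signal, which grows as RNA degrades, was 8.15, 5.45 and 6.67 on caesium arrays and 7.19, 5.41 and 5.74 on control arrays. Each caesium value exceeded the control value of the same number, and the part of this ratio in the results was not tested. Defining root genes were present in both groups. PYK10, an abundant root beta-glucosidase gene, had a signal of 2377 ± 188 in caesium-treated and 2351 ± 454 in control roots (SD, n = 3 each), and the root hair expansin gene EXPA18 had 106 ± 17.4 in caesium-treated and 116 ± 23.2 in control roots. AGL42, a MADS-box gene of the quiescent centre, was at 78.9, 85.3 and 88.0 in caesium-treated roots, against 124, 130 and 125 in control roots. Those groups do not overlap, and the difference of -0.59 ± 0.205 had a limma adjusted p of 0.379.

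The genes of smallest p in caesium-treated against control roots included the germin-like gene AT5G38910 and the defensin genes PDF1.4 and PDF2.1, which were higher, and the coumarin gene AT3G12900 and the glucosinolate gene BCAT4, which were lower. Whether any passed the test depended on the replicate numbers. With limma no probe set had an adjusted p under 0.05 (0.0% of 14432), while 1399 (9.69%) had an unadjusted p under 0.05, 696 of them higher and 703 lower in caesium-treated roots. The replicate number was also fitted as a block. Deviations from group means correlated at 0.439, 0.172 and 0.146 between same-numbered caesium and control arrays, though caesium replicate 3 went slightly more with control replicate 2 (0.185). The blocked fit holds the potassium-starved arrays too, whose same-numbered deviations correlated with those of the controls at 0.506, 0.157 and -0.0506. Potassium-starved replicate 3 went with control replicate 2 instead (0.432). With the block, 42 probe sets passed in limma (0.291%), 20 of them higher (0.139%) and 22 lower (0.152%). In all 42 the 3 pairs went the same way, 41 had no overlap between the groups (15.3% of all tested probe sets had none), and 37 differed at least 2-fold. These traits follow largely from choosing the 42 by p in the same fit, so they are no separate evidence. Of the 42, 21 carry 1 gene name, 13 of those higher and 8 lower.

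The blocked calls rest on most of the arrays. Without caesium replicate 1, caesium replicate 3, control replicate 1, control replicate 3 or potassium-starved replicate 3 no probe set was called, and without control replicate 2 there were 82. The count was 20 without caesium replicate 2, 25 without potassium-starved replicate 1, and 1 when only the 6 caesium and control arrays were fitted. Below, "rose" and "fell" are written of roots only for genes called with the block, or for those called between caesium-treated and potassium-starved roots, and other genes are given as values.

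The gene with the largest rise among the 30 of smallest p was AT5G38910, a germin-like gene of the family of secreted cell wall glycoproteins. Its signal was 126, 174 and 280 in caesium-treated roots, against 22.2, 43.7 and 49.1 in control roots. Every caesium array was far brighter than the brightest control array. The difference was 2.34 ± 0.358 on the log2 scale, with an adjusted p of 0.0733 without and 0.018 with the block. Potassium-starved roots also lay above the controls, at 132, 99.3 and 185.

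A pair of defensin genes, which encode small cysteine-rich antimicrobial peptides, rose. PDF1.4 had 83.6, 79.6 and 95.9 in caesium-treated roots, against 44.0, 30.5 and 40.8 in control roots, a difference of 1.18 ± 0.174 (adjusted p = 0.0733, or 0.0319 with the block). PDF2.1 had 320, 352 and 312 in caesium-treated roots, against 155, 194 and 145 in control roots, a difference of 1.00 ± 0.162 (0.0803, or 0.0392 with the block). In both genes the lowest caesium signal lay well above the highest control signal. Potassium-starved roots lay above the controls too, at 91.9, 81.5 and 90.1 for PDF1.4 and 374, 466 and 470 for PDF2.1. Their differences from the controls were 1.21 and 1.41 (limma adjusted p = 0.0104 and 0.00719), so neither rise was particular to caesium. The third defensin-like gene with an unadjusted p under 0.05, LCR69, was at 1540, 2168 and 1587, against 994, 1170 and 1278 in control roots (0.61 ± 0.177, adjusted p = 0.281). Of 5 tested genes for defensin-like and lipid transfer proteins 4 were higher, 3 of them without overlap, and the median was 0.61, against 0.01 over all tested probe sets. The lower member, LCR68, also had no overlap, at 1331, 1354 and 1110 in caesium-treated roots, against 1844, 1463 and 1598 in control roots (-0.37 ± 0.201, adjusted p = 0.591). Of all tested probe sets 52.5% were higher and 47.5% lower in caesium-treated roots, and 15.3% had no overlap, 7.55% with caesium higher and 7.73% with caesium lower.

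AT1G78780, a gene of a pathogenesis-related family, rose by 1.74 ± 0.263 (adjusted p = 0.0388 with the block). It had signals of 87.9, 123 and 151 in caesium-treated and 36.2, 43.9 and 27.2 in control roots. Potassium-starved roots also lay above the controls for AT1G78780, at 79.4, 93.6 and 136. AT4G12490, a lipid transfer protein gene of the EARLI1 type, which has been linked to systemic defence, had 139, 199 and 70.8 in caesium-treated roots, against 23.9, 25.4 and 35.2 in control roots. It rose by 2.17 ± 0.356 (adjusted p = 0.0392 with the block), and the 3 caesium arrays were spread widely. Potassium-starved roots were at 20.5, 38.3 and 28.4 for this gene, the level of the controls, and the difference of 2.15 ± 0.356 between caesium-treated and potassium-starved roots passed the test (limma adjusted p = 0.012). AT3G47480, which encodes a calcium-binding EF-hand protein, rose by 1.50 ± 0.253 (adjusted p = 0.0392 with the block), with 73.6, 144 and 121 in caesium-treated and 34.6, 40.6 and 40.2 in control roots.

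Cell wall, chaperone and mitochondrial genes followed among the rises and the values just outside the test. EXLB1, an expansin-like gene of the wall-loosening family, had 284, 320 and 217 in caesium-treated roots, against 145, 133 and 90.6 in control roots, and rose by 1.17 ± 0.223 (adjusted p = 0.127, or 0.0317 with the block). AT5G09570, which encodes a small mitochondrial cysteine-rich protein, rose by 1.27 ± 0.249 (adjusted p = 0.0392 with the block), at 126, 62.9 and 76.0 against 42.6, 33.7 and 30.2 in control roots. The cytosolic HSP70 gene AT3G09440, whose product folds proteins, had 1209, 1251 and 1021 in caesium-treated roots, against 620, 666 and 622 in control roots. The groups are far apart beside their spread, and the difference of 0.86 ± 0.161 had an adjusted p of 0.111, or 0.0591 with the block. The drought-inducible linker histone gene HIS1-3 was at 153, 235 and 236, against 84.4, 81.5 and 123 in control roots (1.11 ± 0.215, adjusted p = 0.132, or 0.0637 with the block). Potassium-starved roots were above the controls for HIS1-3 as well, at 274, 235 and 243.

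Among the genes that fell, AT3G12900 encodes scopoletin 8-hydroxylase, which makes the iron-mobilising coumarin fraxetin that roots secrete. Its signal was 53.6, 58.7 and 49.5 in caesium-treated roots, against 132, 103 and 182 in control roots. The caesium arrays varied little and all lay below every control array. The difference was -1.33 ± 0.196 (adjusted p = 0.0733, or 0.0392 with the block). Potassium-starved roots were at 948, 940 and 1007, far above both groups, and the caesium-treated roots fell below them by 4.16 ± 0.196 on the log2 scale (limma adjusted p = 4.14e-06).

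AT5G48430, an aspartyl protease family gene, and AT5G19700, a gene of the MATE transporter family, showed the same order of the 3 root groups. AT5G48430 had 323, 481 and 408 in caesium-treated roots, 1679, 1801 and 1582 in potassium-starved roots, and 937, 768 and 772 in control roots, and it fell by 1.04 ± 0.164 against the controls (adjusted p = 0.0788, or 0.0392 with the block). AT5G19700 had 26.1, 17.2 and 11.7 in caesium-treated roots, 150, 222 and 203 in potassium-starved roots, and 51.6, 72.0 and 107 in control roots. Its caesium signals were all under their arrays' 40th percentile. The size of the fall is therefore uncertain, at -2.08 ± 0.321 (adjusted p = 0.0465 with the block) and at -1.41 with a pseudocount of 16. AT3G61930 and AT1G73120 were also lowest in caesium-treated and highest in potassium-starved roots, at -1.14 ± 0.207 and -1.62 ± 0.332 against the controls, and neither passed with the block (adjusted p = 0.075 and 0.0853).

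BCAT4, which starts the chain elongation of methionine for aliphatic glucosinolates, the sulphur-rich defence compounds of this plant family, fell. It had 849, 894 and 597 in caesium-treated roots, against 1777, 1576 and 1287 in control roots, a drop by 1.00 ± 0.179 on the log2 scale (adjusted p = 0.104, or 0.0288 with the block). AT2G25450, which encodes the dioxygenase GSL-OH that modifies aliphatic glucosinolate side chains, was at 184, 294 and 122 in caesium-treated roots, against 532, 446 and 609 in control roots. Its groups are well apart, with a difference of -1.48 ± 0.267 (adjusted p = 0.104, or 0.0591 with the block). AT1G04770, a gene known to respond to sulphur deficiency, was at 120, 120 and 117, against 218, 194 and 185 in control roots (-0.74 ± 0.156, adjusted p = 0.158). All 5 tested genes of the sulphur and glucosinolate list were lower, 4 with an unadjusted p under 0.05 and 3 without overlap, and their median was -0.74. Over all tested probe sets 47.5% were lower, 4.87% were lower at such a p and 7.73% were lower without overlap. The list holds genes added after values were seen, so its direction is no separate evidence. The other 2 members, the glucosyltransferase genes AT2G31790 and UGT74B1, differed by -0.74 ± 0.335 and -0.30 ± 0.293, with overlapping groups.

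Falls in primary metabolism and of genes with less known roles completed the blocked calls with 1 name. AT1G21440, of the phosphoenolpyruvate mutase and isocitrate lyase family, fell by 1.23 ± 0.228 on the log2 scale (adjusted p = 0.0228 with the block), with 357, 301 and 242 in caesium-treated and 934, 603 and 597 in control roots. AT1G14960, of the major latex protein family, fell by 1.32 ± 0.224 (0.0392), with 109, 131 and 88.9 against 304, 231 and 285 in control roots. Potassium-starved roots lay below the controls for AT1G14960 too, at 112, 72.4 and 66.8. AT5G60760 fell by 1.17 ± 0.191 (0.0392), with 87.4, 97.4 and 101 against 270, 173 and 209 in control roots. Here too the potassium-starved roots lay below the controls, at 136, 106 and 102. AT1G80380, the glycerate kinase gene of photorespiration, was at 323, 437 and 484 in caesium-treated roots, against 714, 724 and 946 in control roots, and fell by 0.95 ± 0.229 (0.0488). It lies outside the 30 genes of smallest p, as do AT2G25510 (1.92 ± 0.409), AT2G18690 (1.29 ± 0.521), AT1G22890 (1.21 ± 0.345) and AT1G25275 (0.86 ± 0.222), which rose with the block at adjusted p from 0.0392 to 0.0465. Without the block the limma adjusted p of these rises was 0.158, 0.46, 0.276 and 0.227, in the same order. Of these, AT2G18690 was the call whose groups overlap, at 355, 872 and 791 in caesium-treated and 149, 476 and 238 in control roots, with each caesium array above the control array of the same number.

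**Figure D1:**
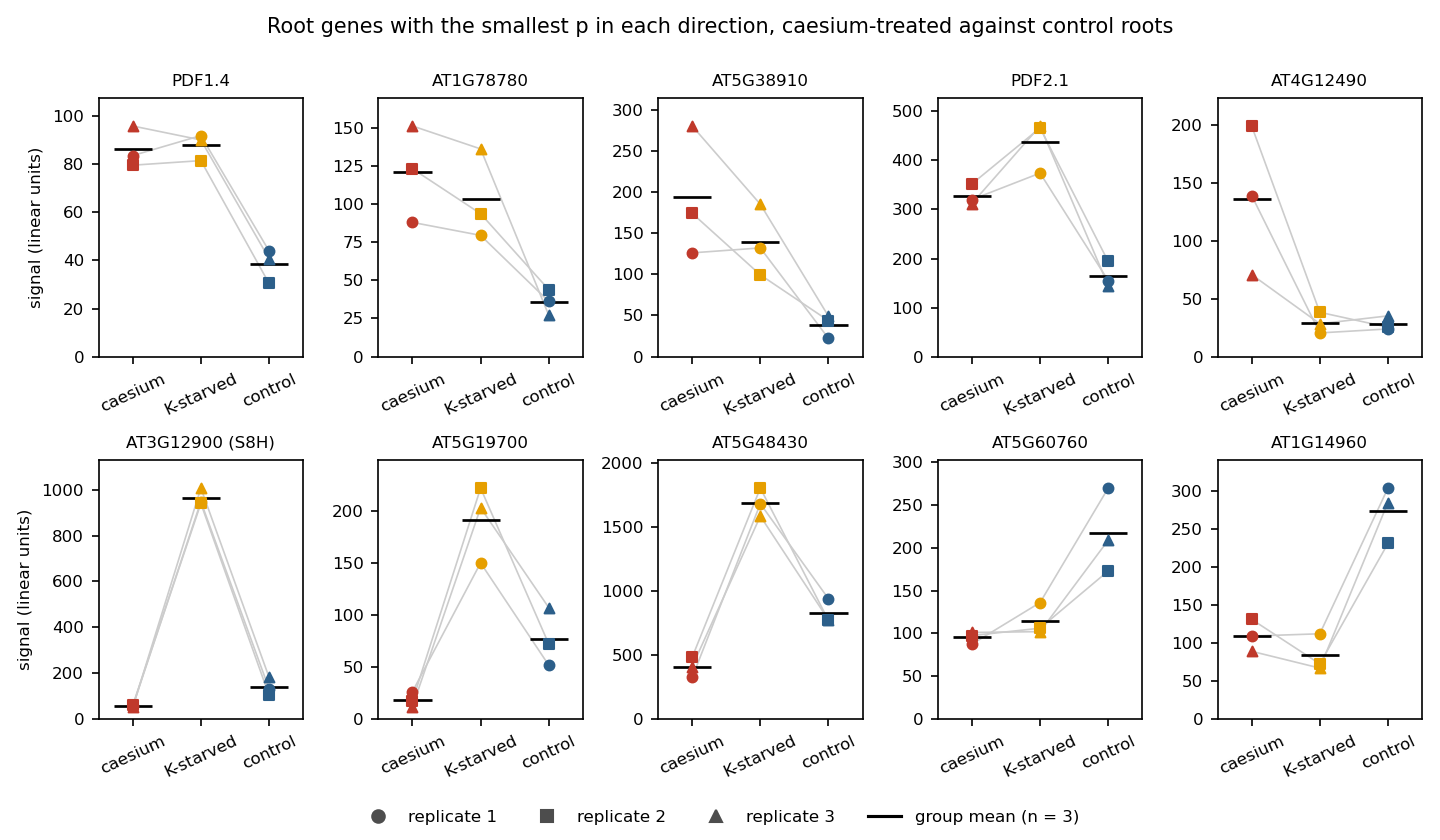
Signal in linear units on each root array for the 5 genes of smallest p that were higher (upper row) and lower (lower row) in caesium-treated than in control roots. Symbols mark the replicate, grey lines join arrays of one number and black bars are group means (n = 3). Caesium and control arrays do not overlap in any of the 10 genes, while potassium-starved roots lie near the caesium arrays for PDF1.4, near the controls for AT4G12490 and far above both for AT3G12900.

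Over the 30 named genes of smallest p, 14 were higher and 16 lower, 24 differed at least 2-fold and none of the groups overlapped, which follows from choosing them by p. Their adjusted p ran from 0.0733 to 0.146, and 16 were called with the block. In potassium-starved against control roots 20 of the 30 had the same sign. Both comparisons share the control arrays, so part of this agreement is built in. In caesium-treated against control shoots, which share no array with the roots, 20 of the 30 were tested, none was called in limma (0.566% of 14665 probe sets were) and 12 had the sign of the roots. An unadjusted p under 0.05 was found in shoots for 7 of the 20 (14.2% of all probe sets tested there), and 2 of the 7 went against the roots, AT2G25450 (0.70 in shoots) and AT3G61930 (2.37). With each array's shoot transcript level as a covariate the difference of AT4G12490 was 1.20. Over the alternative settings the adjusted p ran from 0.00542 to 0.391 for AT5G38910, from 0.0269 to 0.687 for PDF1.4, from 0.023 to 0.391 for AT3G12900, and from 0.0197 to 0.469 for BCAT4. The genes of this group not described above were AT1G71140, of the MATE family (1.49 ± 0.289), and AT2G23270 (1.44 ± 0.293), both higher, and lower AT2G19060 (-1.54 ± 0.277), bZIP58 (-0.92 ± 0.18), AT5G57830 (-0.92 ± 0.186), AT5G19970 (-0.83 ± 0.153), AT5G06800 (-0.83 ± 0.169) and the kelch F-box gene AT1G67480 (-0.77 ± 0.143). None of these 8 was called with the block. AT1G67480 was at 312, 293 and 321 in caesium-treated roots, against 472, 536 and 573 in control roots.

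Transcripts of shoot genes were higher in caesium-treated than in control roots. A set of 244 shoot-specific probe sets was chosen on control shoots and potassium-starved roots alone, as bright in control shoots and at least 5 log2 units dimmer in potassium-starved roots. Their mean signal, as a share of that in control shoots, was 1.66%, 1.91% and 1.61% in caesium-treated roots, against 1.00%, 0.862% and 1.38% in control roots. The 3 caesium arrays all lay above the 3 control arrays, with a ratio of 1.62 and an exact two-sided permutation p of 0.1, the smallest that 3 arrays against 3 can give. Potassium-starved roots were at 0.964%, 1.43% and 1.11%, low in part because they chose the set. Of the 244, 197 were higher in caesium-treated roots, 88 had no overlap with caesium higher and 5 with caesium lower. Over all tested probe sets these shares were 7.55% and 7.73%. Only 89 of the 244 were bright enough in roots to be tested, so signs and overlaps of the others rest on dim signals. Of the 89, 52 were higher and 1 lower at an unadjusted limma p under 0.05, against 4.82% and 4.87% of all tested. Potassium-starved roots were dim by choice, so a probe set could pass the filter through the caesium or the control arrays alone. That favours probe sets that differ between these groups, so the counts of 52 and 1 are no separate evidence. In whole roots a larger share of cells with these transcripts and more RNA per cell cannot be told apart, nor can shoot pieces and greening of roots.

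Nuclear photosynthesis genes showed the larger difference and plastid-encoded genes a small one. The 13 nuclear genes stood at 2.58%, 3.3% and 2.69% of the control shoot level in caesium-treated roots, against 1.14%, 1.15% and 1.73% in control roots, a ratio of 2.16 (exact p = 0.1). This ratio includes 2 genes too dim to be tested in roots, HCF101 and LHCB4.2. LHCB4.2 was at 20.1, 28.8 and 17.9 in caesium-treated roots, against 1.66, 4.23 and 1.47 in control roots, which raises the ratio. All 11 tested members were higher, 9 with an unadjusted p under 0.05 and 9 without overlap, and none was called with the block. Over all tested probe sets 52.5% were higher, 4.82% were higher at such a p and 7.55% were higher without overlap. Control signals of PORB, SBPASE, PRK and LHCB4.3 were all under their arrays' 40th percentile. These genes passed the filter through caesium-treated and potassium-starved arrays only, so their higher signs are no separate evidence. The list median of 1.05 was 0.71 with a pseudocount of 16. PORB, which reduces protochlorophyllide in the light, had 29.7, 38.2 and 36.0 in caesium-treated roots, against 15.9, 14.9 and 13.0 in control roots (1.24 ± 0.258, adjusted p = 0.151). Both groups were far below the 1985 ± 37.9 of control shoots. The size of the PORB difference is uncertain, at 0.72 with the pseudocount. LHCB4.1, a light-harvesting protein gene, had 81.1, 136 and 90.8 in caesium-treated roots, against 53.1, 46.1 and 67.5 in control roots, and PSAE-1 of photosystem I 77.6, 80.6 and 80.2 against 14.9, 13.4 and 43.8. The chlorophyll synthesis gene AT1G74470, a geranylgeranyl reductase, rose by 1.07 ± 0.184 (adjusted p = 0.089, or 0.0491 with the block), with 82.2, 97.2 and 89.3 in caesium-treated and 35.3, 39.5 and 55.4 in control roots.

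The 69 plastid-encoded genes, which root plastids also transcribe, stood at 15.4%, 16.9% and 13.8% of the control shoot level in caesium-treated roots. In control roots they stood at 12.1%, 10.1% and 19.7%, so control replicate 3 lay above every caesium array (ratio 1.14, exact p = 0.6). Of 57 tested, 41 were higher and 3 had an unadjusted p under 0.05, against 52.5% and 9.69% of all tested probe sets. The median of the 57 was 0.33, and it turned to -0.39 with the shoot covariate described below. The member that stood out was ndhC, of the plastid NADH dehydrogenase complex, at 375, 306 and 233 in caesium-treated roots, against 132, 117 and 156 in control roots (1.16 ± 0.194, adjusted p = 0.0816, or 0.0548 with the block).

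**Figure D2:**
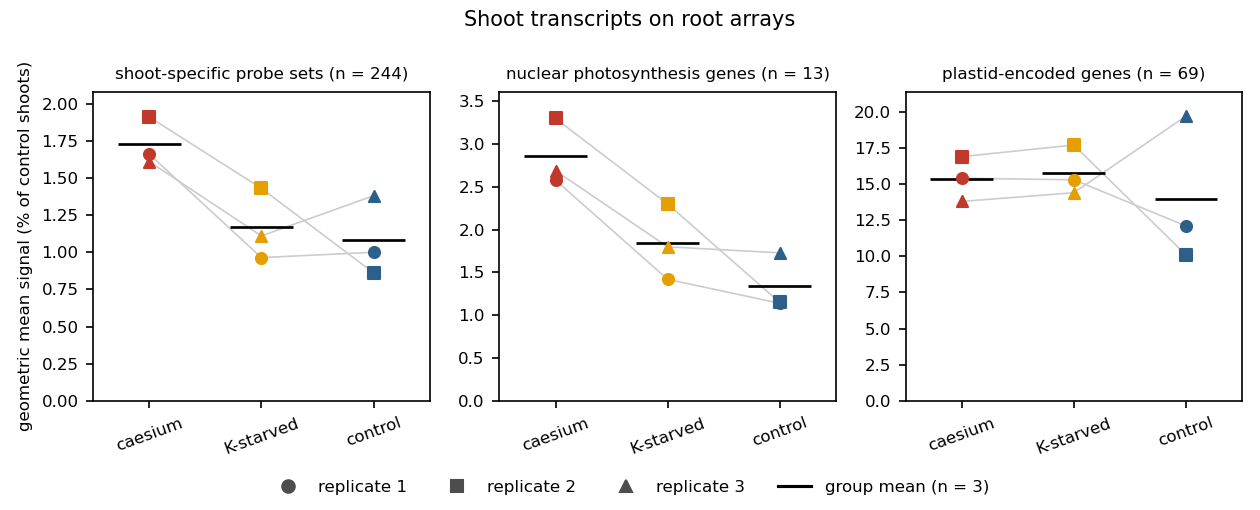
Geometric mean signal on each root array as a percentage of the control shoot level, for 244 shoot-specific probe sets, 13 nuclear photosynthesis genes and 69 plastid-encoded genes. Symbols mark the replicate, grey lines join arrays of one number and black bars are group means (n = 3). Caesium arrays lie above all control arrays in the first and second panels, and control replicate 3 is the highest array in the plastid panel.

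Shoot-enriched probe sets were frequent among those higher in caesium-treated roots. Probe sets at least 4-fold brighter in control shoots than in potassium-starved roots made up 5.2% of all tested (751 of 14432). They made up 15.5% (108 of 696) of those higher and 2.13% (15 of 703) of those lower at an unadjusted p under 0.05, and 4 of the 20 rises and 0 of the 22 falls called with the block. AT2G25510, a rise of the blocked fit with 482 ± 194 in caesium-treated and 123 ± 42.5 in control roots (SD, n = 3 each), and AT1G74470 are such genes. With each array's level of shoot-specific probe sets as a covariate beside the block, 21 probe sets passed in limma, and 3 of the 42 remained. The difference of AT1G74470 was 0.71 with the covariate and no block. This level separates both groups by itself, so the covariate also takes up differences of any other origin. With the covariate and no block, the median of the nuclear photosynthesis list was 0.19, and that of the sulphur and glucosinolate list -0.55. The signs of PSAE-1 (-0.32), PSBW (-0.43), PSAN (-0.70) and RCA (-0.28) turned, while LHCB4.1 (0.19) and PORB (1.65) stayed higher.

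Potassium transport itself could hardly be read from named probe sets. The list of potassium channels and carriers had 1 named gene, AT1G60160, a potassium transporter of the KUP family, whose signals of 13.6, 18.3 and 22.8 in caesium-treated and 17.0, 6.6 and 15.7 in control roots were too low to be tested. CHX16, a cation/proton exchanger gene, differed by 0.68 ± 0.676 with overlapping groups (adjusted p = 0.791), and its sign turned with the shoot covariate (-1.01). Of 5 tested glutamate receptor genes, members of the channel family through which caesium can enter, none was called. ATGLR1.2 had 26.3, 33.0 and 34.6 in caesium-treated and 17.4, 28.1 and 22.6 in control roots (0.48 ± 0.244), and GLR3.5 had 23.9 ± 1.08 in caesium-treated and 33.2 ± 9.13 in control roots (SD, n = 3 each), a difference of -0.44 ± 0.276. Of 9 carriers for nitrate, phosphate, sulphate and ammonium and 6 calcium sensor genes none was called either, with medians of -0.04 and -0.11.

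Iron deficiency genes separated the caesium-treated roots from the potassium-starved ones more than from the controls. Of 14 tested, 10 were lower than in control roots (47.5% of all tested), 2 with an unadjusted p under 0.05 (4.87% of all tested), and AT3G12900 was called with the block. AT3G07720, a kelch repeat gene, had 249, 327 and 310 in caesium-treated roots, against 651, 375 and 560 in control roots (-0.81 ± 0.245, adjusted p = 0.298). Against potassium-starved roots 6 of the 14 were called lower, in a comparison where 655 of 14432 probe sets passed in limma (4.54%), 328 higher and 327 lower (2.27% each). They were AT3G12900, AT3G07720 (-2.04 ± 0.245), AT5G05250 (-1.75 ± 0.301), AT3G13610, which makes the coumarin scopoletin (-0.99 ± 0.139), the regulator gene PYE (-0.74 ± 0.148) and bHLH115 (-0.57 ± 0.12). For AT3G13610 the caesium arrays, at 1496, 1914 and 1678, overlapped the controls, at 1580, 1981 and 1640, and only the potassium-starved arrays, at 3497, 3573 and 3033, stood apart. Against control roots bHLH115 differed by -0.173 (limma adjusted p = 0.679). The median of the 14 was -0.1 in caesium-treated and 0.52 in potassium-starved roots, each against control roots, so much of the gap lies in the potassium-starved roots.

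Detoxification genes went both ways. Of 12 tested glutathione transferase genes, whose enzymes conjugate toxic or oxidised compounds, 3 were higher and 4 lower at an unadjusted p under 0.05, against 4.82% and 4.87% of all tested, and none was called. GSTU25 had 96.1, 221 and 167 in caesium-treated roots, against 56.3, 41.5 and 52.7 in control roots (1.62 ± 0.455, adjusted p = 0.268), and GSTU22 differed by 1.08 ± 0.335. GSTU20, GSTU26, GSTU28 and GSTU27 differed by -1.12 ± 0.298, -1.10 ± 0.277, -0.84 ± 0.3 and -0.65 ± 0.157. GSTU26 was at 160, 192 and 193 in caesium-treated roots, against 467, 243 and 519 in control roots. Against potassium-starved roots GSTU25 and GSTU22 rose, by 1.94 ± 0.455 and 1.41 ± 0.335 (limma adjusted p = 0.0388 and 0.0407).

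Other oxidative and defence genes gave single values. NDB2, an external NADH dehydrogenase of mitochondria, had 259, 210 and 260 in caesium-treated roots, against 162, 146 and 144 in control roots, without overlap (0.68 ± 0.148, adjusted p = 0.167, or 0.0975 with the block). AT1G26390, a berberine bridge enzyme-like oxidase gene, had 42.2, 85.7 and 44.2 against 14.8, 15.7 and 12.2 in control roots (1.94 ± 0.4, 0.149). The control signals of AT1G26390 were all under their arrays' 40th percentile, so the size of its difference is uncertain. Its relative AT4G20820 had 30.5, 39.2 and 43.5 against 86.7, 50.9 and 146 in control roots (-1.21 ± 0.312, 0.227), and the 9 tested members of that family had a median of 0.33. Among 41 class III peroxidase genes, whose secreted enzymes act on the cell wall, 20 were higher and 21 lower, with a median of 0.00. Of these AT5G06730 was at 70.1, 56.7 and 45.4 in caesium-treated roots, against 28.1, 38.4 and 31.4 in control roots (0.80, adjusted p = 0.324). At an unadjusted p under 0.05, 2 members were higher and 4 lower, against 4.82% and 4.87% of all tested probe sets. The lower ones were AT3G03670 (-0.59), AT2G37130 (-0.61), AT4G26010 (-0.81) and AT2G39040 (-0.59). Only AT2G39040 of these had no overlap, at 103, 116 and 103 in caesium-treated roots, against 239, 142 and 123 in control roots. All 6 tested heat shock genes were higher (52.5% of all tested probe sets were), with a median of 0.52, and none reached an unadjusted p under 0.05.

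Cell wall and further families had small medians, with most members lower in 2 of the families. Of 20 expansin and xyloglucan endotransglucosylase genes EXLB1 was called with the block and the median was 0.01. Of 17 trichome birefringence-like genes, which acetylate wall polysaccharides, 15 were lower with a median of -0.22. All 7 IQ-domain genes were lower or at 0.00 with a median of -0.22, while 47.5% of all tested probe sets were lower. Both medians came to 0.00 or above with the shoot covariate (0.00 and 0.26). In potassium-starved against control roots the 2 medians were -0.48 and -0.59. Of 26 glycosyltransferase genes UGT85A2, UGT88A1 and UGT87A2 were higher at an unadjusted p under 0.05 (4.82% of all tested probe sets were), at 0.89, 0.72 and 0.55. COR47, a dehydrin gene, differed by -0.61 ± 0.183 and OSM34, the osmotin gene, by 0.42 ± 0.15, each without overlap and neither called. The auxin (6 tested), WRKY (6), sugar and starch (10), and senescence and autophagy (13) lists had medians from -0.15 to 0.04 and no call with or without the block.

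**Figure D3:**
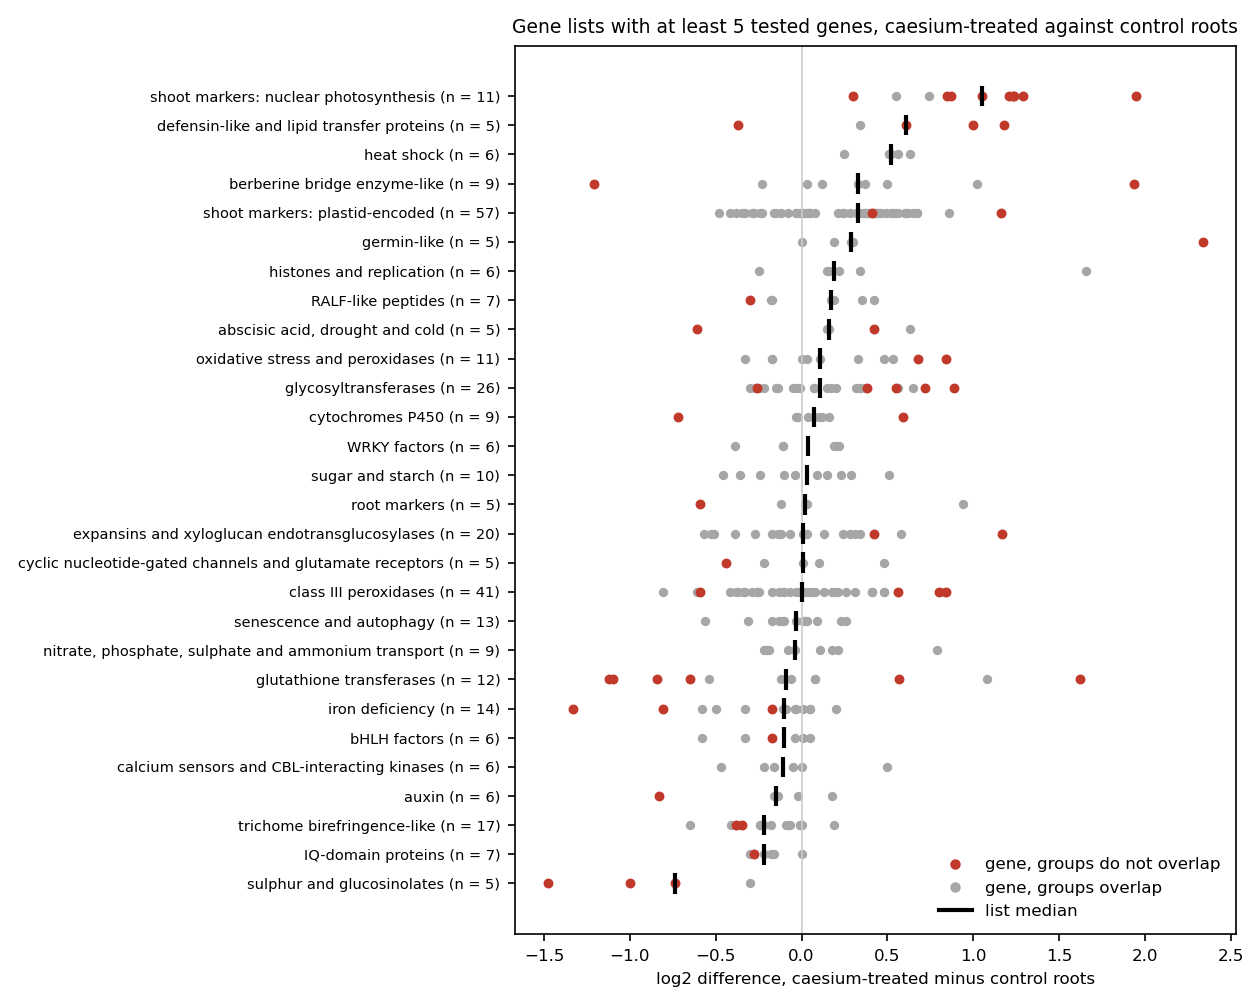
Log2 difference, caesium-treated minus control roots, for each tested gene of the lists with at least 5 tested genes, ordered by list median (black bar). Red points are genes whose 3 caesium and 3 control arrays do not overlap and grey points are genes whose groups overlap. Nuclear photosynthesis genes lie highest (median 1.05) and sulphur and glucosinolate genes lowest (median -0.74).

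More probe sets passed the test against potassium-starved roots than against control roots, and whether the gap itself exceeds chance was not tested. The count of 655 was 128, 175, 126 and 150 without caesium replicate 1, caesium replicate 3, potassium-starved replicate 2 and potassium-starved replicate 3. Shifting the arrays to a common median changed the split to 252 higher and 454 lower. Besides AT3G12900, AT3G61930, AT5G48430 and AT5G19700, the smallest p among falls belonged to the zinc finger gene AT2G28710, at 39.8, 43.1 and 45.5 in caesium-treated roots, against 172, 178 and 168 in potassium-starved roots (-2.01 ± 0.195, adjusted p = 0.0011). Control roots, at 58.2, 52.4 and 89.2, lay above every caesium array.

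Among the rises over potassium-starved roots, AT3G18760 had 236, 153 and 196 in caesium-treated roots, against 73.8, 80.4 and 71.7 in potassium-starved roots (1.35 ± 0.17, adjusted p = 0.0036). AT1G53645 (1.49 ± 0.195), AT3G05190 (1.71 ± 0.243), the hydroxyproline-rich glycoprotein gene AT5G19800 (2.48 ± 0.347) and AT1G73600, a phosphoethanolamine methyltransferase gene of phosphatidylcholine synthesis (1.43 ± 0.206), also rose. For AT1G73600 and AT5G19800 the caesium arrays overlapped the control arrays, and AT5G19800 was very dim in potassium-starved roots, at 7.0, 6.43 and 5.09, so the size of its difference is uncertain. The same holds for AT3G05190, at 11.2, 16.1 and 15.1 in potassium-starved roots, all under their arrays' 40th percentile. Its control signals, at 22.1, 26.5 and 20.7, were under it too. AT3G05190 thus entered the test through the caesium arrays alone, and its rise is no separate evidence. AT3G09440 rose as well, with 682, 470 and 514 in potassium-starved roots (1.08 ± 0.161, 0.00813), and BCAT4 (-1.35 ± 0.179) and AT2G25450 (-1.91 ± 0.267) fell. ASPGB1, an asparaginase gene, was lower by -1.42 ± 0.233 (adjusted p = 0.0118), with 200, 258 and 248 in caesium-treated and 478, 705 and 724 in potassium-starved roots.

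**Figure D4:**
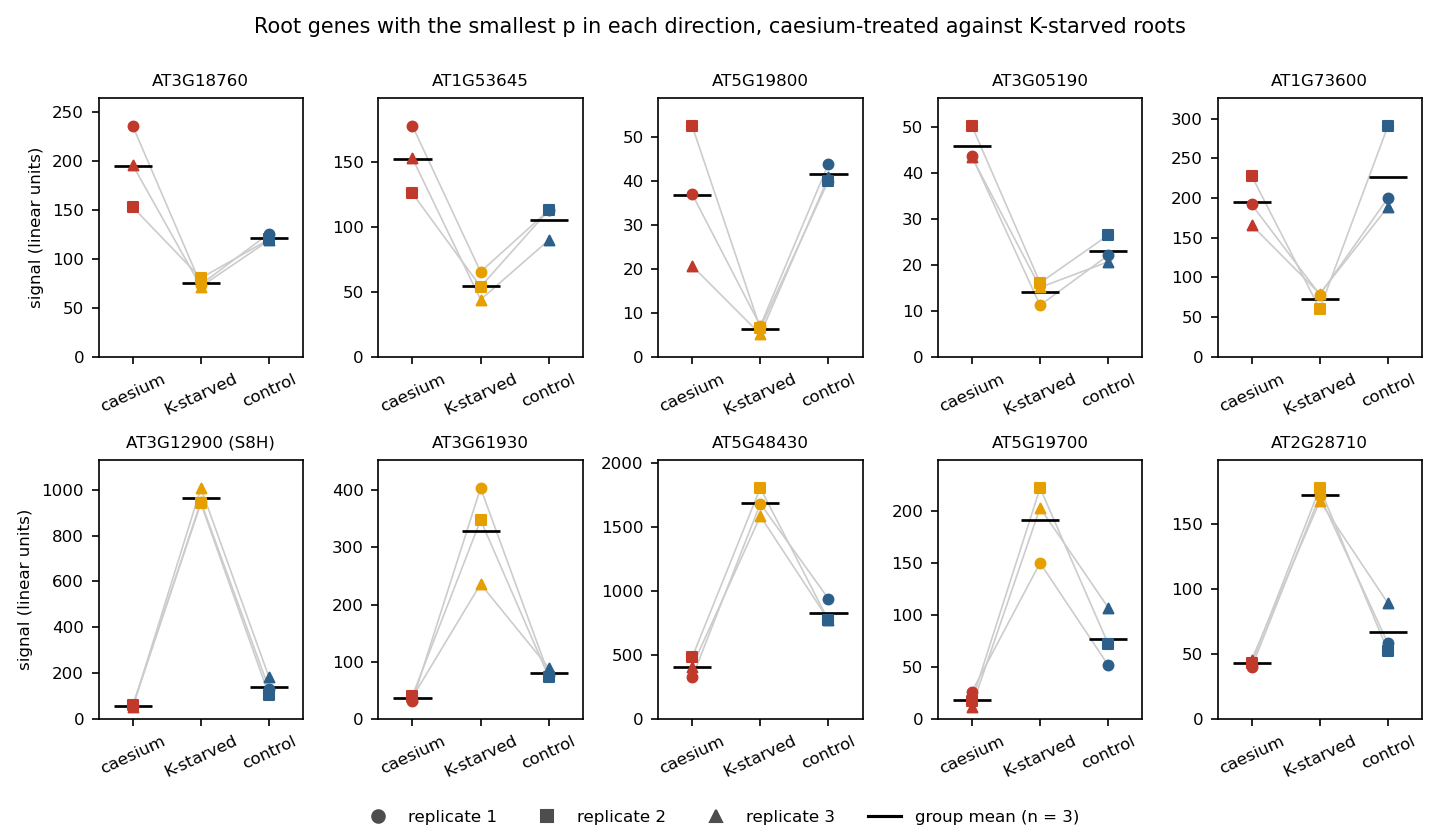
Signal in linear units on each root array for the 5 genes of smallest p that rose (upper row) and fell (lower row) in caesium-treated against potassium-starved roots. Symbols mark the replicate, grey lines join arrays of one number and black bars are group means (n = 3). In the lower row potassium-starved roots stand above both other groups, and caesium arrays lie below every control array.

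The caesium response of roots differed from that of shoots in 23 of 16397 probe sets by limma (0.14%), 11 with a response higher and 12 with one lower in roots. No probe set passed without caesium shoot replicate 2 or 3, and leaving out any other array gave 3 to 59. For AT2G25450 the response was lower in roots by 2.19 ± 0.366 on the log2 scale (adjusted p = 0.0337). In shoots it had 819, 1213 and 1171 under caesium, against 841, 548 and 585 in controls, while in roots the caesium arrays lay below the controls. AT4G01870 had 464, 434 and 430 in caesium-treated shoots, against 174, 189 and 112 in control shoots. In roots it had 137, 97.3 and 98.8 under caesium and 131, 95.5 and 148 in controls, and the responses differed by -1.68 ± 0.308 (0.0436).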

How the data were processed

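Transcript levels were measured on 18 ATH1 arrays, 1 per sample. The deposited values are linear signal intensity, 1 per probe set, which per the submitters' processing notes the authors made with MAS5 (version and settings not given in the sources used here). The trimmed mean (2% off either end) lay between 99.2 and 99.5 on every array, so the arrays had been scaled before deposit. Arrays give no read depth, and their number limits the precision.

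The 64 control probe sets were left out. Of 22746 others, the platform annotation named 1 gene for 13513, several for 503 and none for 8730, and 13436 matched a RefSeq TAIR10.1 gene. Only probe sets with 1 gene are named, through the brightest of a gene's probe sets. The annotation gives no functions, so roles of genes are general background.

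The log2 signals, without a pseudocount, were tested in limma 3.58.1 (R 4.3.3; lmFit, eBayes with trend) over the 9 root arrays, two-sided, with Benjamini-Hochberg adjustment over all tested probe sets. The interaction used all 18 arrays. The fits were tested on simulated data. The replicate numbers came from the sample titles. Deviations from group means correlated at 0.439, 0.172 and 0.146 between caesium and control roots of one number, so these numbers were taken as pairs, though caesium replicate 3 correlated at 0.185 with control replicate 2. They were 0.292, 0.0922 and 0.261 between caesium-treated and potassium-starved roots, and 0.506, 0.157 and -0.0506 between potassium-starved and control roots, which do not meet the rule for pairs, so the blocked fit over 9 arrays also pairs arrays that may not belong together.

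Named were the 30 genes of smallest p, the 2 of smallest p in each of 4 lists tied to caesium or potassium, and the 5 of smallest p per direction in the other comparisons; other list members and blocked calls were named after their values were seen. The groups, members and 48 gene lists were chosen with earlier results of these data known. The berberine bridge enzyme, germin-like, HSP70, chlorophyll and glucosinolate loci were added after values were seen. Of the lists, 41 had a tested gene, 342 genes in all.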

Additional observations from a re-analysis of the deposited data

Results flagged for a closer look

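In 9 named genes the caesium response of roots differed from that of shoots, which is what brought them up here; differences are root minus shoot on the log2 scale, by the limma interaction test. AT1G23130 (5.3), the light-harvesting gene LHCB4.2 (3.88), AT1G67860 (3.63) and the chlorophyll b reductase gene NOL (1.89) entered this test through their shoot signals. They were too dim to be tested in roots, with control root signals at or below 4.23, so the sizes of these 4 differences are not reliable. For LHCB4.2 the caesium-treated roots were at 20.1, 28.8 and 17.9, against 1.66, 4.23 and 1.47 in control roots. LHCB4.2 is among the 13 nuclear photosynthesis genes, so these dim signals enter their ratio of 2.16. AT4G33666 differed by 1.57. Lower in roots were AT2G25450 (-2.19), AT2G28710 (-1.74), AT4G01870 (-1.68) and AT3G17110 (-3.18), the last with control shoots at 3.46, 3.77 and 1.29. Without caesium shoot replicate 2 or caesium shoot replicate 3 no probe set passed this test.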

How the results depend on the processing

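Without the replicate block, limma's count of 0 in caesium-treated against control roots was kept under quantile normalization, the median shift, no filter, a filter at the 60th percentile, the 6 arrays alone, the shoot covariate and leaving out shoot-enriched probe sets. It was 1 with the pseudocount of 16, 1 without the trend, 21 with array weights and 27 with all 18 arrays in 1 fit, and 0 to 7 when each root array was left out in turn. With the replicate block it was 42, and in combinations chosen after seeing the data 40 with the median shift, 49 with the pseudocount, 35 after quantile normalization, 21 with the shoot covariate, 1 with the 6 arrays alone, and 0 to 82 leaving out each array (25 and 32 without potassium-starved replicates 1 and 2). Caesium-treated against potassium-starved roots gave 655 calls, 1574 with the replicate block and 126 to 702 leaving out each array. The interaction gave 23, 35 after the median shift, 156 with the replicate block and 0 to 59 leaving out each array. Caesium-treated against control shoots gave 83, and 20 after the median shift, 34 without the filter, 159 with the pseudocount, 681 with the replicate block and 0 to 159 leaving out each array. The causes were not tested. The ratio of shoot-specific signal was 1.46 to 1.85 leaving out each array, and 1.44 with a threshold of 4 log2 units (390 probe sets). CHX16 reversed, at -1.01 with the shoot covariate, -0.7 with block and covariate and -0.01 with the block without control replicate 2. None of the 30 genes of smallest p changed direction under these settings. Other genes given as values whose sign turned with the shoot covariate include PSAE-1, PSBW, PSAN, RCA, PYK10 (to -0.48), EXPA18 (to 0.03) and UGT74B1 (to 0.17).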
